A study of Mus musculus with 14 samples.

Results

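Transcription factors that give neurons of different brain regions their identity were followed in single-nucleus (sn)RNAseq data of mouse brain and retina. The set holds 30 genes, listed by name for their known regional expression, out of 26528 genes measured in the brain and 28316 in the retina, and each of the 30 was measured in both tissues. By known expression 9 of them are grouped here as pallial (cortex and hippocampus), 9 as subpallial (striatum and forebrain interneurons), 3 as diencephalic (thalamus) and 9 as cerebellar or hindbrain genes.

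The study removed *Tgfbr1*, a TGF-beta receptor, from endothelial cells (ECs) and compared nuclei of whole retinas and of Ficoll-enriched brain vascular fragments with controls. Knockout animals were *Cdh5CreER;Tgfbr1 CKO/-* mice (CKO; the labels write VEcadCreER) given 4-hydroxytamoxifen between postnatal days 3 and 5, and controls are labeled wild type. The study calls its control retinas phenotypically wild type and gives their usual genotype as *Cdh5CreER* with *Tgfbr1 CKO/+* or *Tgfbr2 CKO/+*, but not that of the sequenced controls. The brain is represented by 1 control and 1 CKO library, each from pooled brains, and the retina by 1 control and 11 CKO libraries, whose mice per library are not stated. Mice were at P14 by the study's methods, whereas the labels call them young adults. Cre was active in ECs, so neurons were not the targeted cells, and CKO animals carry 1 *Tgfbr1* null allele in every cell. The brain neurons came along in a preparation meant to enrich vessels, so the labels' proportions are not those of brain tissue.

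As background, regional transcription factors are switched on in progenitors or newborn neurons of one territory and many are kept in the adult neuron. Pallial factors such as the NEUROD proteins and TBR1 mark glutamatergic cortical neurons, DLX homeodomain proteins mark GABAergic neurons of the ventral forebrain, and ZIC proteins and PAX6 mark cerebellar granule neurons. Several are used again in the retina, where PAX6, ISL1 and PROX1 act in the formation of amacrine, bipolar and horizontal cells.

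Depth in the brain was 49798325 unique molecular identifiers (UMIs, which count each captured transcript once) over 16649 control nuclei and 31033373 UMIs over 14675 CKO nuclei; per nucleus the medians were 1541 and 1395, and 2 barcodes occur in both libraries. Levels are given as CPM, the UMIs of a gene scaled to all UMIs of that label and library. Bracketed ranges are 95% intervals that cover counting error only, because the brain has no replicate library. The authors' labels divide the brain nuclei into 21 types, of which 11 are neuronal (9 named Glut and 2 named GABA).

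The names of Glut_14 and Glut_21 go against their transmitter genes, and Glut_1 and Glut_20 held both kinds. In Glut_14, 71.3% of control and 66.1% of CKO nuclei held UMIs of *Gad1*, *Gad2* or *Slc32a1*, which serve GABA synthesis and loading, and of no vesicular glutamate transporter, while 0.713% and 1.01% held the reverse. In Glut_21 the shares with GABA genes alone were 56.6% and 53.1%. Glut_1 held both kinds of nuclei, with 23.6% of control nuclei positive for a glutamate transporter alone and 29.4% for GABA genes alone. In Glut_20, 33.1% of control and 21.2% of CKO nuclei carried UMIs of both kinds together, 25.8% and 21.8% those of a glutamate transporter alone and 17.3% and 19.4% those of GABA genes alone. Glut_0, by comparison, had 43.3% and 30.9% of nuclei with a glutamate transporter alone and 0.805% and 0.419% with GABA genes alone. The deposited names are kept below as names only.

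The first question was whether the libraries place each gene in the same label. Among the 20 members with at least 100 UMIs in each library, 17 had their highest CPM in the same label of the 19 with at least 50 nuclei in each library, against 65.6% of all 13516 genes that passed the same minimum. The exceptions were *Emx1* (Glut_20 in control, Glut_11 in CKO), *Prox1* (oligodendrocytes and Glut_5) and *Isl1* (GABA_9 and GABA_22, the latter from 1 UMI). The top label was neuronal in both libraries for 13 of the 20 and non-neuronal in both for 6, namely *Foxp2*, *Foxp1*, *Zic2* and *Zic4* in the label "glia" and *Cux2* and *Tcf7l2* in oligodendrocytes.

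A gene was called raised in a neuronal label when its CPM was at least 2 times the median of the other neuronal labels in both libraries, with at least 10 UMIs in each. Of the 23 members that could meet this rule in any label, 23 did so in at least 1, against 58.0% of 13041 genes. The clusters were made from the same nuclei and genes, so these counts describe the labels and are not tested. A gene of low level meets the UMI minimum only in labels where it is high, most of all in labels with few UMIs. The shares raised, here and by label below, are therefore partly set by the minimum and are not evidence about the members. Labels were then compared with companion markers, genes of known regional expression that are not among the 30. The members and the companion lists were chosen with earlier results of these data known, so the companions are not an independent check.

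**Figure D1:**
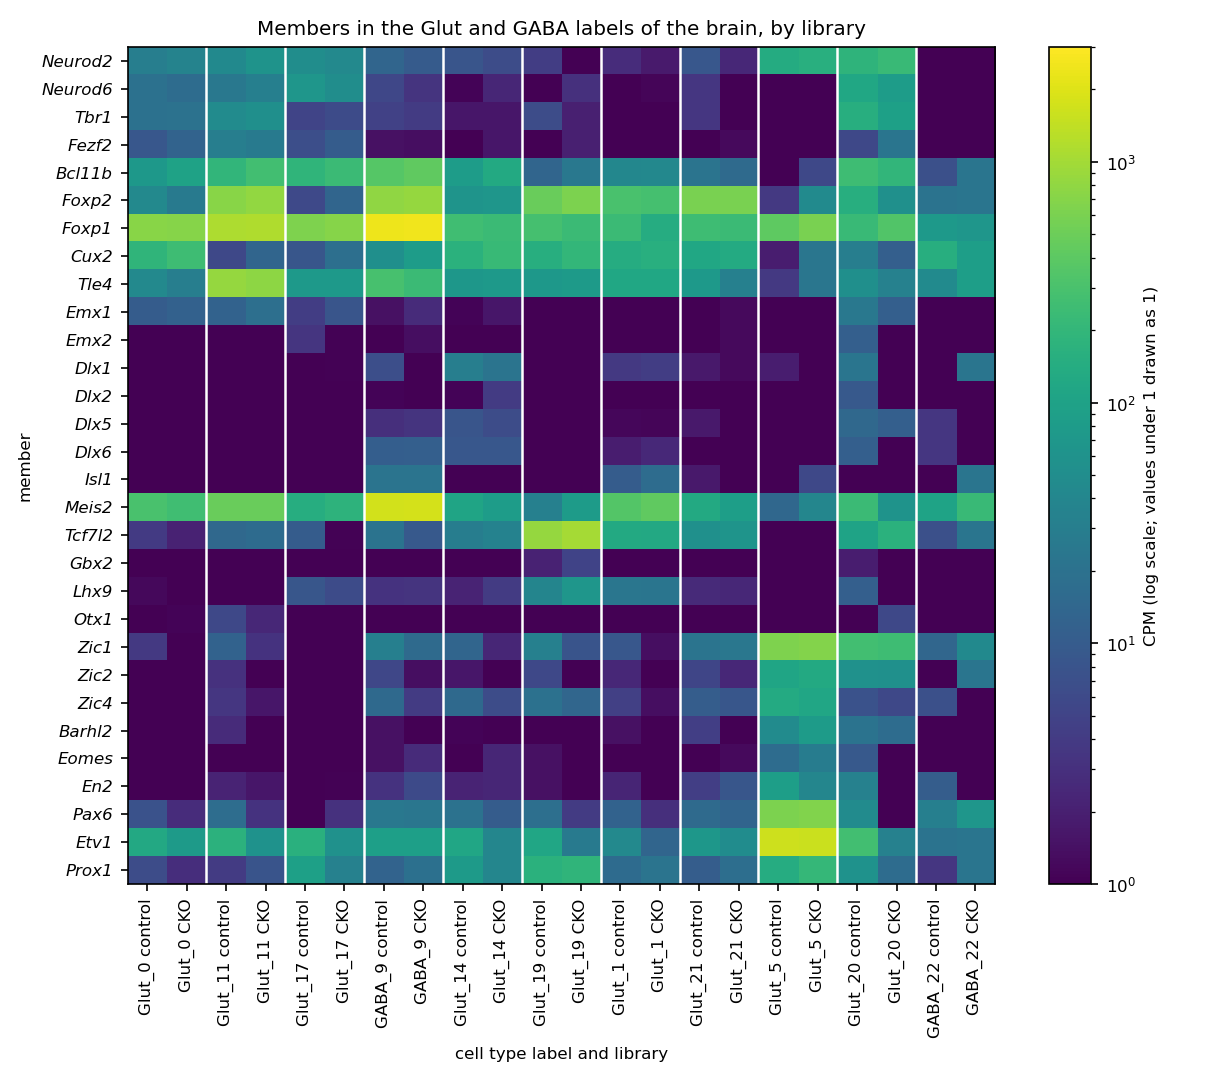
CPM of the 30 members (vertical axis) in the 11 neuronal labels of the control and CKO brain libraries (horizontal axis, side by side for each label), on a log color scale in which values under 1 are drawn as 1. *Etv1* is at 1654 and 1600.4 CPM in Glut_5 and *Meis2* at 1733 and 1813 CPM in GABA_9.

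In Glut_0, 7 of 15 members that could pass were raised, against 11.3% of all genes there, namely *Neurod2*, *Neurod6*, *Tbr1*, *Fezf2*, *Foxp1*, *Cux2* and *Emx1*. *Cux2*, a homeodomain factor of upper cortical layers, stood at 186 CPM (178 to 194) in control and 249 CPM (238 to 259.6) in CKO Glut_0 nuclei. *Neurod2*, a basic helix-loop-helix activator of cortical and granule neurons, was at 30.5 CPM (27.4 to 33.8) and 36.3 CPM (32.3 to 40.7). *Emx1*, a homeobox gene of the dorsal telencephalon, was at 10.3 and 12.2 CPM there and had 1 UMI or none in Glut_19, Glut_1 and Glut_5 of each library. Of the cortical companions, 7 of 8 were raised.

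In Glut_11, 10 of 13 members were raised, against 10.5% of all genes. *Tle4*, a corepressor of corticothalamic neurons in layer 6, reached 856 CPM (819 to 896) and 761 CPM (713 to 811), its highest level in any brain label. *Fezf2*, which specifies subcortical projection neurons, had 31.0 CPM (24.1 to 39.1) in control and 25.9 CPM (17.7 to 36.6) in CKO. *Tbr1*, needed for layer 6 identity, had 47.8 and 54.3 CPM, and *Foxp2*, a forkhead repressor of deep layers, had 728 and 807 CPM. Between the libraries the intervals overlap for *Fezf2* and *Tbr1* and lie apart for *Tle4*. *Cux2* was at 5.75 CPM (3.06 to 9.83) and 13.8 CPM (8.03 to 22.1) in the same nuclei, far below its level in Glut_0. Of the deep layer companions measured there, *Hs3st4* reached 3158 and 3540.1 CPM and *Syt6* 139.7 and 249 CPM. *Rprm* was at 7.96 and 4.86 CPM and *Nxph4* at 1.77 and 0 CPM, and 3 of 8 cortical companions were raised. In GABA_9 *Syt6* was at 178 and 181 CPM, above Glut_11 in the control and below it in CKO. *Hs3st4* was at 524 and 541 CPM in GABA_9.

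The layers were also compared nucleus by nucleus, a step chosen after the data had been seen. In Glut_11 at least 1 of the deep layer members was detected in 94.9% of control and 89.7% of CKO nuclei, and *Cux2* in 2.13% and 2.84%. In Glut_0 *Cux2* was detected in 40.8% and 34.6% and a deep layer member in 28.3% and 16.1%, with both in 9.71% and 4.48%, and whether these are separate nuclei types was not tested. Median depth in control and CKO was 4669 and 1804 UMIs in Glut_11 and 5004 and 2314 in Glut_0. The part of depth in these shares was not tested. Nuclei of Glut_0 with *Fezf2* and no *Cux2* numbered 66 and 79, and those with *Cux2* and no *Fezf2* numbered 848 and 1057. *Bcl11b*, a zinc finger factor of subcerebral projection neurons, was at 213 against 23.0 CPM between these sets in the control (ratio 9.24, 7.15 to 11.9) and in CKO the ratio was 4.04 (2.93 to 5.51). *Etv1*, an ETS factor of layer 5, differed in the same direction, by ratios of 5.03 (4.12 to 6.11) and 2.69 (1.86 to 3.83). *Foxp1*, found across cortical layers, had ratios of 1.10 (0.996 to 1.21) and 1.41 (1.24 to 1.59). *Meis2* went the other way at 0.800 (0.678 to 0.939) and 0.600 (0.451 to 0.784). The nuclei with *Fezf2* were the deeper ones, at a median of 8907.5 against 5928 UMIs in the control and 3772 against 2683 in CKO, and the part of depth in these ratios was not tested.

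Glut_17 had 4 of 9 members raised, against 10.7% of all genes. *Neurod6*, a helix-loop-helix factor of cortical and hippocampal pyramidal neurons, was at 67.0 CPM (53.0 to 83.5) and 51.0 CPM (37.7 to 67.4), above its 20.0 and 17.1 CPM in Glut_0. *Bcl11b* was at 186 and 233 CPM. *Tbr1* and *Cux2* were low, *Tbr1* at 5.09 and 6.24 CPM. Companion markers raised were 4 of 8 for cortex and 2 of 6 for hippocampus, the latter being *Fibcd1* and *Wfs1*, both known from field CA1, so the label was placed in cortex by the rule and carried hippocampal markers as well. *Prox1*, which maintains dentate granule neurons, stood at 95.8 CPM (79.0 to 115) in control and 33.3 CPM (22.8 to 47.0) in CKO.

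In GABA_9, 8 of 14 members were raised against 10.6% of all genes, 6 of them subpallial and the others *Tle4* and *Zic1*. *Meis2*, a homeodomain factor of the striatum, reached 1733 and 1813 CPM, and its next highest neuronal label, Glut_11, had 482 and 476. *Foxp1*, which acts in medium spiny neurons, was at 2480.5 CPM (2422 to 2540.0) in control and 2549 in CKO. *Isl1*, a LIM homeodomain factor of striatonigral neurons, was at 21.8 CPM (16.6 to 28.0) and 21.5 CPM (14.7 to 30.3). *Bcl11b* had its highest brain level there, 367 and 430.4 CPM. All 8 striatal companions were raised, among them *Drd2* at 214 and 219 CPM, and 3 of 8 cortical companions, the same number as in Glut_11.

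GABA_9 nuclei were split by the dopamine receptor pathways, again after the data had been seen. Nuclei with *Drd1* and without *Drd2*, *Adora2a* or *Penk* numbered 87 in control and 51 in CKO, and nuclei with the opposite pattern numbered 242 and 219. *Foxp2* was at 1141 against 414 CPM between them in control (ratio 2.75, 2.43 to 3.12) and 1294 against 369.5 CPM in CKO (interval of the ratio 2.82 to 4.34). *Foxp1* had ratios of 0.954 (0.891 to 1.02) and 0.940 (0.827 to 1.06), and *Meis2* of 1.01 (0.925 to 1.09) and 1.11 (0.955 to 1.29), so in both libraries *Foxp2* alone of the 3 separated the sets beyond counting error.

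In Glut_14, 2 of 12 members were raised against 10.1% of all genes, a share close to the background. They were *Dlx1*, which sustains GABAergic interneurons, at 30.8 CPM (23.2 to 39.9) and 21.6 CPM (14.2 to 31.4), and *Dlx6*, another DLX gene, at 8.79 and 8.80 CPM. *Dlx5* was under the UMI minimum with 8.24 and 6.40 CPM from 15 and 8 UMIs. Of the 8 interneuron companions 7 were raised, and all 4 GABA genes were, with *Gad2* at 431 and 441 CPM. *Prox1*, also known from interneurons of the caudal ganglionic eminence, was lower in nuclei with *Lhx6*, *Sst* or *Pvalb* and no *Vip* than in nuclei without those 3 genes, at 15.2 against 120.0 CPM in control (ratio 0.126, 0.0615 to 0.234) and 11.9 against 49.2 CPM in CKO (0.242, 0.0631 to 0.663). This split was chosen after the data had been seen, and its sets had median depths of 5500.5 and 2815 UMIs in control and 2673 and 1867.5 in CKO.

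In Glut_19, 5 of 11 members were raised against 15.2% of all genes. *Tcf7l2*, a WNT effector that patterns the thalamus, was at 839 CPM (792 to 888) and 1021 CPM (959 to 1085), above every other neuronal label. *Lhx9*, a LIM homeodomain gene of the caudal thalamus and midbrain, had 38.1 CPM (28.5 to 49.8) and 66.8 CPM (51.7 to 84.8). *Gbx2*, a thalamic homeobox gene, had its highest neuronal level there too, but from 3 and 5 UMIs. All 6 thalamic companions were raised, *Ntng1* at 4299 and 4340.4 CPM. *Prox1* was at 167 and 189 CPM in the same label, and *Foxp2*, which is also thalamic, at 481 and 611 CPM.

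In Glut_1, 7 of 14 members were raised against 21.3% of all genes, and they came from several territories: *Foxp2*, *Dlx1*, *Dlx6*, *Isl1*, *Meis2*, *Tcf7l2* and *Lhx9*. The companion lists tied, with 4 of 6 thalamic, 4 of 6 cerebellar interneuron and 6 of 9 midbrain and hindbrain markers raised, so the label was not placed in one region. Splitting it by transmitter, after the data had been seen, gave 359 control and 300 CKO nuclei with *Slc17a6* and no GABA gene, and 495 and 486 with the reverse. *Lhx9* was at 47.7 against 2.58 CPM between them in control (ratio 18.5, 8.18 to 51.7) and at 44.7 against 2.69 CPM in CKO (16.6, 5.24 to 84.2). *Tcf7l2* had ratios of 3.39 (2.79 to 4.13) and 2.88 (2.10 to 3.99). *Isl1* lay on the GABA side, with ratios of 0.140 (0.0362 to 0.394) and 0.288 (0.0859 to 0.770), as did *Dlx1* in the control at 0.114 (0.0129 to 0.465). Median depth was 4944 and 4296 UMIs in the control sets and 2234 and 1990 in the CKO sets.

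Glut_21 had 2 of 11 members raised, against 18.4% of all genes. *Foxp2*, which is expressed in Purkinje cells, was at 595 CPM (551 to 641) and 600.4 CPM (549 to 656), and *Tcf7l2* at 55.1 and 62.8 CPM. All 5 Purkinje companions were raised, with *Car8* at 2615 and 2601 CPM and *Pcp2* at 309 and 252 CPM, and 3 of 6 thalamic and 3 of 5 oligodendrocyte companions were raised as well.

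In Glut_5, 8 of 9 members that could pass were raised, against 37.0% of all genes, 6 of them cerebellar and the others *Neurod2* and *Prox1*. *Etv1* was at 1654 CPM (1591 to 1718) and 1600.4 CPM (1418 to 1799), far above every other neuronal label of either library. *Zic1*, a zinc finger gene of granule neuron precursors, was at 645 CPM (606 to 686) and 674 CPM (558 to 808). *Pax6*, a paired box factor of granule neurons, had 624 and 657 CPM, and *Barhl2*, a homeobox gene of the rhombic lip, 48.3 and 80.0 CPM. *En2*, which patterns the cerebellum, had 87.8 CPM (73.9 to 104) in control and 40.0 CPM (16.1 to 82.4) in CKO, from 140 and 7 UMIs. *Eomes*, the marker of unipolar brush cells, was at 16.9 and 28.6 CPM from 27 and 5 UMIs. All 6 granule companions were raised, *Gabra6* at 1307 and 1166 CPM. The label has low depth, with medians of 713 and 502 UMIs, and its nuclei were unevenly divided, 1858 in control and 251 in CKO.

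In Glut_20, 7 of 10 members were raised, no more than the 70.7% of all genes, so the count does not set the members apart. *Tbr1* at 154 CPM (122 to 191) and 95.5 CPM (55.6 to 153), *Zic1* at 264 and 253 CPM and *Tcf7l2* at 102 and 169 CPM were all among them. Its companions were raised for granule neurons (4 of 6), cortex (5 of 8), Purkinje cells (3 of 5), GABA genes (4 of 4), astrocytes (4 of 5) and oligodendrocytes (3 of 5). The 5 astrocyte markers summed to 789 and 1096 CPM, led by *Slc1a3*, with none at 0. The part of other cell types' RNA or of mixed nuclei in this label's values was not tested. GABA_22, with 198 and 53 nuclei, had 0 of 1 member raised against 37.4% of all genes, and 4 of 6 cerebellar interneuron companions raised.

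Several members were higher outside neurons. *Foxp1* reached 3591 and 4738 CPM in the label "glia", above GABA_9, and *Foxp2* 1348 and 1733 CPM. In that label the astrocyte markers *Slc1a3* and *Gja1* were at 1014 and 515 CPM and at 822 and 1138 CPM. *Aqp4* and *Gfap*, also astrocyte markers, were at 19.04 and 18.03 CPM and at 14.43 and 22.04 CPM. The oligodendrocyte companion *Pdgfra* was at 361 and 134 CPM. The vessel genes *Cdh5* and *Rgs5* were at 256 and 166 CPM and at 227 and 252 CPM. Which cells the name "glia" covers was not tested. *Zic4*, which lies next to *Zic1*, was at 468 and 280.5 CPM in "glia" against 133 and 114 CPM in Glut_5. *Tcf7l2* reached 1509.9 CPM in control and 1804 CPM in CKO oligodendrocytes, where it acts in myelination, above its Glut_19 level. *Emx2*, a homeobox gene of the dorsal telencephalon, was highest in astrocytes at 36.0 and 35.6 CPM, as was *Otx1* at 10.3 and 13.8 CPM. The 7 members that never had enough UMIs in a neuronal label to be raised were *Emx2*, *Dlx2*, *Dlx5*, *Gbx2*, *Otx1*, *Eomes* and *En2*.

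Shares of nuclei with a UMI were compared between a label with a high level and one with a low level. *Meis2* was detected in 91.2% of control (88.6 to 93.3) and 91.6% of CKO (89.2 to 93.6) GABA_9 nuclei, at median depths of 3495 and 1408 UMIs, and in 0.161% and 2.39% of Glut_5 nuclei, at medians of 713 and 502. With each nucleus thinned to 1000 UMIs, which left out 86 and 234 GABA_9 and 1466 and 219 Glut_5 nuclei, the shares were 75.0% and 75.9% against 0.510% and 3.12%. *Tle4* was detected in 84.5% (80.9 to 87.6) and 69.6% (65.6 to 73.4) of Glut_11 nuclei, at medians of 4669 and 1804 UMIs, and in 0.215% and 1.59% of Glut_5 nuclei. Thinning left out 55 and 143 Glut_11 nuclei and gave 53.3% in each library. *Tcf7l2* was detected in 92.7% (88.4 to 95.7) and 87.8% (83.8 to 91.1) of Glut_19 nuclei, at medians of 6480.5 and 2718 UMIs, against 1.75% and 0.322% of Glut_0 nuclei at 5004 and 2314. Thinned, with 20 and 74 Glut_19 and 268 and 723 Glut_0 nuclei left out, the shares were 51.5% (44.3 to 58.7) and 65.6% (59.6 to 71.4) against 0.271% and 0.168%.

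The libraries were then compared within each neuronal label. Ratios of CKO to control CPM were taken where a gene had at least 50 UMIs over both libraries, and a ratio of at least 2 or at most 0.5 was called past 2-fold. Of 110 such pairs of a member and a label, 20 were past 2-fold, against 7.44% of the 57060 pairs of all genes, with 19 lower and 1 higher in CKO. With at least 200 UMIs required, 4 of 62 member pairs were past it against 2.16% of all pairs, each of them *Etv1* (in Glut_1, Glut_11, Glut_14 and Glut_17), and with at least 20 UMIs, 34 of 144 against 14.3%. With 1 library per genotype, these are differences between 2 libraries and have no test. Trimmed mean (TMM) scaling moved log2 ratios by -0.62 in Glut_5, -0.22 in GABA_22, -0.20 in Glut_20 and 0.11 in Glut_17 and left the same 20 member pairs past 2-fold.

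*Etv1* accounted for 6 of the 20. Outside Glut_5 it was lower in CKO in 8 of 9 labels with a ratio, by 174 to 58.4 CPM in Glut_11 (ratio 0.335, 0.257 to 0.432), 43.4 to 13.8 CPM in Glut_1 (0.317, 0.237 to 0.419), 114 to 25.9 CPM in Glut_19 (0.227, 0.144 to 0.345) and 268 to 33.7 CPM in Glut_20 (0.126, 0.0455 to 0.281). In GABA_9 it was at 91.1 and 91.3 CPM (1.00, 0.808 to 1.24; 0.996 with TMM scaling). In Glut_5, where it is highest, the ratio was 0.968 (0.853 to 1.10), and 0.630 after TMM scaling. *Zic1* was past 2-fold lower in Glut_0 at 0.223 (0.0848 to 0.499), Glut_1 at 0.154 (0.0544 to 0.355) and Glut_19 at 0.247, the latter from 45 and 8 UMIs with an upper limit of 0.529. *Pax6* was past it in Glut_0 at 0.366 (0.221 to 0.585) and Glut_1 at 0.240 (0.123 to 0.432). In Glut_5 *Zic1* and *Pax6* had ratios of 1.05 and 1.05, which TMM scaling turned to 0.680 and 0.686.

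*Prox1* was lower in CKO Glut_17 at 0.348 (0.227 to 0.519), Glut_0 at 0.455 (0.274 to 0.729) and Glut_14 at 0.496 (0.351 to 0.690), and not in Glut_19 at 1.13 (0.929 to 1.38), Glut_1 at 1.31 (0.984 to 1.73), GABA_9 at 1.53 (0.904 to 2.58) or Glut_5 at 1.45 (0.992 to 2.07), the last of which TMM scaling turned to 0.945. The remaining pairs past 2-fold and lower were *Foxp2* in Glut_20 at 0.366 (0.169 to 0.707), *Meis2* in Glut_20 at 0.265 (0.129 to 0.491), *Tle4* in Glut_21 at 0.444 (0.276 to 0.692), *Tcf7l2* in GABA_9 at 0.447 (0.230 to 0.811) and *En2* in Glut_5 at 0.456 (0.180 to 0.964). The single higher one was *Meis2* in Glut_19, from 33.0 to 80.7 CPM (2.44, 1.68 to 3.59).

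*Etv1*, *Zic1*, *Pax6* and *Prox1* are also genes of Glut_5, which gave 1858 of 16649 control nuclei and 251 of 14675 CKO nuclei. The 6 granule companion markers, looked at outside Glut_5 after the data had been seen, were lower in CKO in 8 of the 10 other neuronal labels, with the interval below 1 in 5. Their summed level was 54.4 and 23.6 CPM in Glut_0 (ratio 0.435, 0.369 to 0.511), 74.6 and 23.7 CPM in Glut_1 (0.318, 0.255 to 0.393), 84.0 and 21.9 CPM in Glut_11 (0.261, 0.167 to 0.391) and 89.1 and 38.9 CPM in Glut_19 (0.436, 0.296 to 0.630). *Gabra6* or *Fat2* was the most abundant of them in Glut_0, Glut_1 and Glut_11 of the control, and *Neurod1* in Glut_19, with none at 0 in the control. In CKO, 1 of the 6 was at 0 in Glut_0 and in Glut_19. In Glut_17 the sum did not follow, at 21.2 and 21.9 CPM (1.03, 0.549 to 1.92), while *Etv1* was at 0.356 and *Prox1* at 0.348 there. The same held in Glut_20, where the sum was at 0.883 (0.713 to 1.09) and *Etv1* at 0.126, and *Prox1* was at 1.31 in Glut_1, where the sum was lower. In GABA_22 the sum was higher in CKO, from 14 and 12 UMIs (5.41, 2.28 to 12.6). In Glut_5 itself the sum was 3689 and 3349 CPM. Among non-neuronal labels the sum was higher in CKO in OPCs (2.43, 1.97 to 2.99), where *Etv1* was at 1.81, *Pax6* at 2.74 and *Zic1* at 2.57, and also in astrocytes (1.68, 1.34 to 2.09), CP_6 (1.28, 1.00 to 1.63) and microglia (3.51, 1.34 to 8.71, from 14 and 9 UMIs). It was lower in the other 6 non-neuronal labels: oligodendrocytes, at 96.1 and 9.61 CPM, where *Etv1* was at 0.152 and *Prox1* at 1.05, ECs (0.401, 0.314 to 0.511), where *Etv1* was at 0.610 and *Pax6* at 0.415, vSMCs (0.657, 0.424 to 0.980), "glia" (0.751, 0.563 to 0.990), CP_8 (0.768, 0.576 to 1.01) and pericytes, with 3 and 0 UMIs. Besides *Prox1* in oligodendrocytes, some members in non-neuronal labels lay on the other side of 1 from the sum. These were *Zic1* in ECs (1.05), astrocytes (0.696) and CP_8 (1.01), *Etv1* in CP_6 (0.873) and microglia (0.745), and *Pax6* in CP_6 (0.977). The part of granule neuron RNA in the ratios of *Etv1*, *Zic1*, *Pax6* and *Prox1* was not tested.

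**Figure D2:**
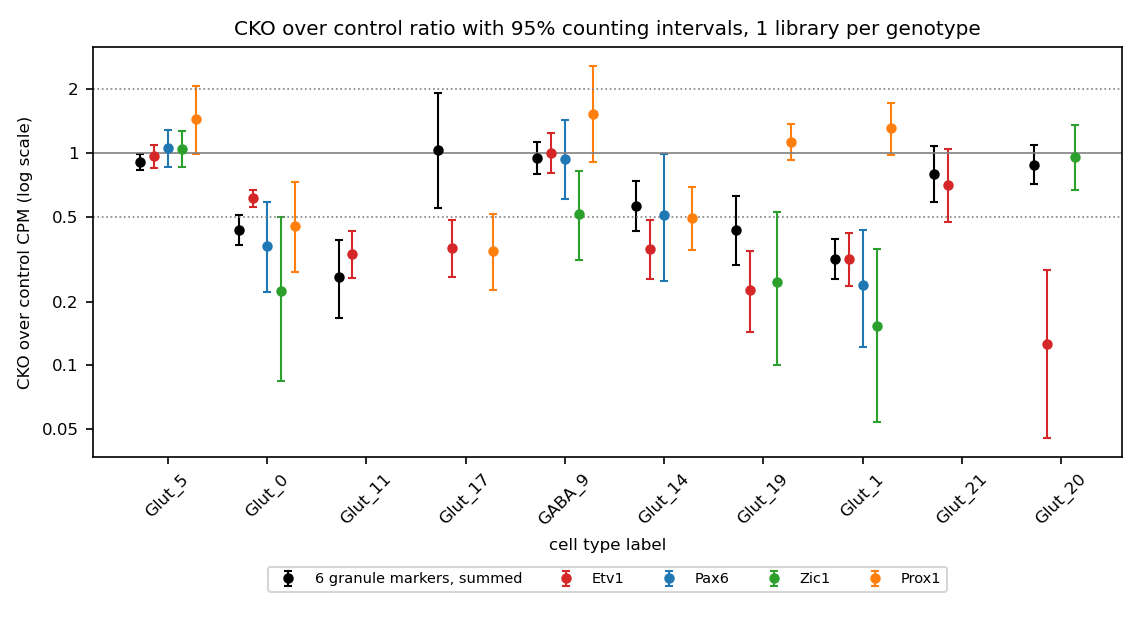
Ratio of CKO to control CPM (vertical axis, log scale) in 10 neuronal labels (horizontal axis) for *Etv1*, *Pax6*, *Zic1*, *Prox1* and the sum of 6 granule markers, with bars for 95% counting intervals of 1 library per genotype and dotted lines at 2 and 0.5. *Etv1* lies at 0.335 in Glut_11 and 0.356 in Glut_17, where the granule sum is at 0.261 and 1.03, and in Glut_5 the ratios of *Zic1* and *Pax6*, drawn at 1.05, fall below 1 with TMM scaling.

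In the retina the set splits differently. The control library holds 11513 nuclei and 30989702 UMIs, the CKO libraries 104, 4210 and 18862 nuclei (lowest, median and highest) and 90449, 16443337 and 55803724 UMIs, and 10 barcodes occur in more than 1 library. CKO replicate 4, with 104 nuclei, enters only ganglion cells and immune cells, since levels used libraries with at least 10 nuclei of a type. By the authors' batches, the control shares batch 1 with CKO replicates 1 to 3, while replicates 4 and 5 form batch 2 and replicates 6 to 11 batch 3. Kits differ within batch 3, with PIPseq 5 used for replicates 8 to 11 and PIPseq 4PLUS for all other libraries. In the control, the 4 horizontal cell markers summed to 1299 CPM in horizontal cells and 103 CPM in ganglion cells, and the 5 ganglion cell markers to 996 CPM in ganglion cells and 33.4 CPM in horizontal cells.

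*Emx1*, *Emx2*, *Dlx1*, *Dlx2*, *Dlx5*, *Dlx6*, *Gbx2* and *Otx1* had a median over CKO libraries under 1 CPM in every retinal type. *Isl1*, at 21.8 CPM in its highest control brain label, was at 1279.7 CPM (1232 to 1329) in control rod bipolar cells, and at 917, 968 and 1380.1 CPM (lowest, median and highest) in CKO. *Prox1* reached 1279.7 CPM in the same control cells, with CKO values of 896, 1256 and 1682 CPM, and 881 CPM (815 to 951) in control horizontal cells. *Meis2* was highest in GABAergic amacrine cells, at 1349 CPM (1318 to 1379.7) in control and 989, 1210.4 and 1609 CPM in CKO. *Pax6* was at 833 CPM (788 to 880.5) in control Müller glia and 611 CPM in GABAergic amacrine cells. In each of these the control lay within the CKO range.

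Pallial genes varied in the retina. *Cux2* was at 149 CPM in control GABAergic amacrine cells and 107, 141 and 184 CPM in CKO. *Neurod2* was at 34.2 CPM (28.4 to 40.9) in control glycinergic amacrine cells and 19.7, 29.0 and 42.9 CPM in CKO. *Fezf2*, a projection neuron gene in cortex, was found in cone bipolar cells, at 31.4 CPM (26.8 to 36.5) in control and 22.2, 34.9 and 50.8 CPM in CKO. *Tle4* was highest in cones, at 355 CPM (320.2 to 392) and 316, 410.1 and 482 CPM. *Tcf7l2* was highest in astrocytes, at 608 CPM (366 to 949) and 307, 512 and 808 CPM, and in Müller glia had 362 CPM in control. Its astrocyte values rest on 19 control UMIs. *Lhx9* was at 41.3 CPM (36.1 to 47.0) in control GABAergic amacrine cells, close to its 38.1 CPM in Glut_19 of the control brain. In CKO the retinal median was 40.1 CPM, and Glut_19 had 66.8 CPM. *Zic1*, *Zic2*, *Zic4* and *Etv1* were all highest in retinal astrocytes, in the control and by the CKO median, with *Etv1* at 319.8 CPM (153 to 588) in the control. The control held only 12 astrocyte nuclei with 31274 UMIs of all genes, so these control levels rest on few UMIs.

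Genotypes were tested in 7 retinal types with edgeR's quasi-likelihood test, with batch as a covariate and p-values adjusted by Benjamini-Hochberg over all genes of the type. No member passed in any of them. In GABAergic amacrine cells edgeR called 0 of 16 members, against 0.00712% of all genes, with 0 members at an unadjusted p under 0.05 and 0 called by DESeq2. In glycinergic amacrine cells it called 0 of 15 members, against 0.0153%, with 1 member at an unadjusted p under 0.05 and 0 called by DESeq2. In ganglion cells it called 0 of 17 members, against 0% of all genes, with 0 members under 0.05 unadjusted and 0 by DESeq2. In cone bipolar cells it called 0 of 13, against 0%, with 2 members under 0.05 unadjusted and 0 by DESeq2. In rod bipolar cells it called 0 of 11, against 0%, with 0 members under 0.05 unadjusted and 0 by DESeq2. In horizontal cells it called 0 of 13, against 0%, with 1 member under 0.05 unadjusted and 0 by DESeq2. In Müller glia it called 0 of 13, against 0.00807%, with 2 members under 0.05 unadjusted and 0 by DESeq2. Among all genes, those under 0.05 unadjusted by edgeR numbered 247 of 14054 in GABAergic and 390 of 13098 in glycinergic amacrine cells, 234 of 12580 in ganglion, 330 of 13942 in cone bipolar, 351 of 11130 in rod bipolar and 559 of 10459 in horizontal cells, and 864 of 12384 in Müller glia. With 1 control library, the spread was estimated from CKO libraries. With batch as a covariate and the control in batch 1 only, the fold changes rest on the control against CKO replicates 1 to 3. Counts of CKO libraries above or below the control, given below, span all batches and both kits.

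The smallest unadjusted p belonged to *Foxp2* in Müller glia. It was at 300.4 CPM (273 to 329) in the control and at 115, 190.1 and 208 CPM in CKO, where 10 of 10 libraries lay below the control and the batch 1 libraries ran from 131 to 208 CPM. The log2 fold change was -0.93 (SE 0.27) with an edgeR adjusted p of 0.442, and 0.178 to 0.703 over the alternatives. *Isl1* in the same cells was at 3.31 CPM (1.07 to 7.72) in control, from 5 UMIs, and at 8.01, 12.6 and 28.5 CPM in CKO, with 10 of 10 libraries above. Its log2 fold change was 2.26 (SE 0.84) with an edgeR adjusted p of 0.610, and 0.287 to 0.740 over the alternatives. Neither gene passed the adjusted test. Across the other tested types, the log2 fold change of *Foxp2* was -1.51 in cone bipolar, -0.92 in horizontal, -0.78 in GABAergic amacrine and -0.25 in rod bipolar cells. It was 0.04 in ganglion and 0.00075 in glycinergic amacrine cells. *Isl1* had CKO medians of 968 CPM in rod bipolar and 306 CPM in cone bipolar cells. The part of their RNA in its Müller glia level was not tested.

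*Meis2* in glycinergic amacrine cells was at 149.9 CPM (137 to 163) in control and 179, 207 and 234 CPM in CKO, with 10 of 10 libraries above. The log2 fold change was 0.44 (SE 0.18) with an edgeR adjusted p of 1.00, and 0.822 to 1 over the alternatives. *Foxp2* in cone bipolar cells was at 8.13 CPM (5.88 to 10.9) in control and 0.997, 2.85 and 3.60 CPM in CKO, and its log2 fold change was -1.51 (SE 0.52) with an edgeR adjusted p of 1.00, and 0.947 to 1 over the alternatives. *Lhx9* there had 0 UMIs in the control, whose upper limit is 0.697 CPM, and 0, 0.508 and 2.99 CPM in CKO, so no fold is given. *Prox1* in horizontal cells was at 881 CPM in control and 443, 704 and 1209 CPM in CKO, with 9 of 10 libraries below, and its log2 fold change was -0.78 (SE 0.35) with an edgeR adjusted p of 0.907, and 0.644 to 1.00 over the alternatives.

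**Figure D3:**
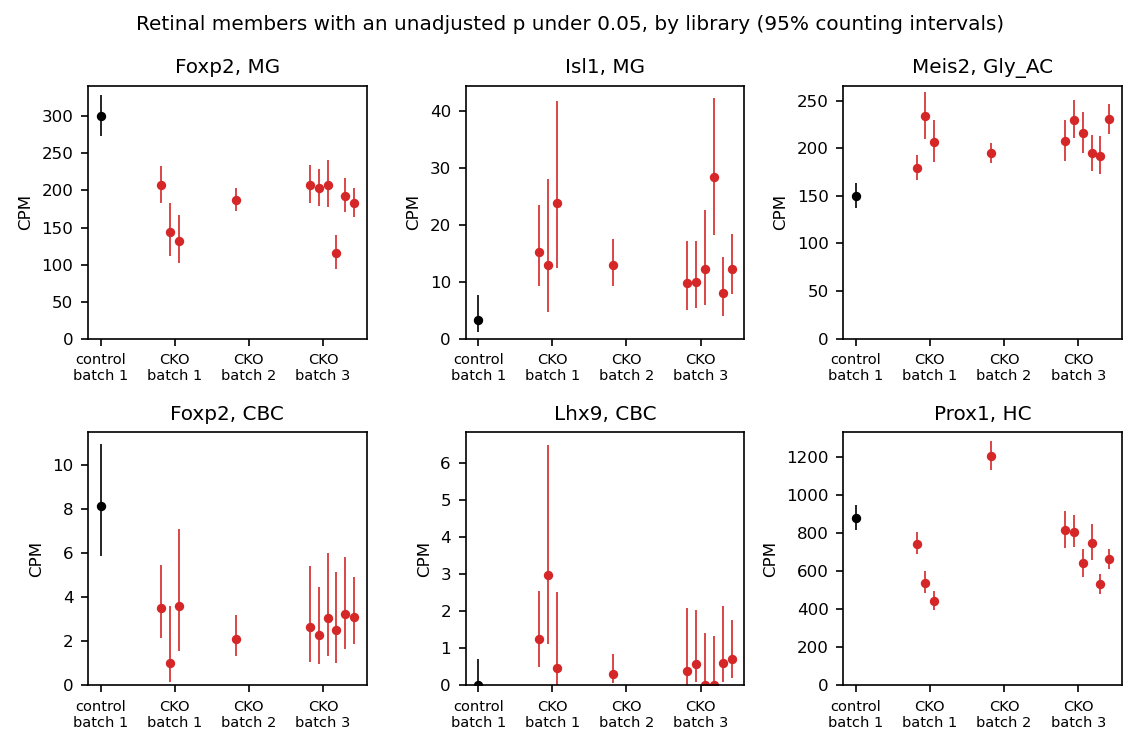
CPM (vertical axis) of *Foxp2* and *Isl1* in Müller glia, *Meis2* in glycinergic amacrine cells, *Foxp2* and *Lhx9* in cone bipolar cells and *Prox1* in horizontal cells, for the control library and CKO libraries by batch (horizontal axis), with 95% counting intervals as bars. *Foxp2* in Müller glia lies at 300.4 CPM in the control and between 115 and 208 CPM in the CKO libraries.

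The 30 genes lie on 10 chromosomes of GRCm39. They form 3 neighboring pairs with no coding gene between: *Dlx1* and *Dlx2* on chromosome 2, 9426 bases apart, *Dlx6* and *Dlx5* on chromosome 6, 9235 bases apart, and *Zic1* and *Zic4* on chromosome 9, which overlap by 3715 bases on opposite strands. Other measured genes overlap 15 of the 30, and 13 of these lie on the opposite strand, such as *Elp4* over *Pax6* and *Prox1os* over *Prox1*. The sources do not state whether strand was used in counting, so how UMIs from the shared stretches were assigned to overlapping genes is not known.

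RefSeq promoter windows, from 250 bases before to 50 after a start, were available for 24 members, in 32 windows. The NEUROD E-box motif CAGATG (read on the other strand as CATCTG) occurred in those of 4 members, *Cux2*, *Etv1*, *Neurod2* and *Prox1*, and in 17.1% of all 32544 windows. The ZIC motif CAGCAGG, which reads CCTGCTG on the other strand, occurred in the window of *Emx1* alone and in 10.5% of all windows, and TAATTA, the core bound by homeodomain factors, in those of *Emx2*, *Foxp1* and *Tbr1* and in 5.29%. The windows of *Neurod2*, *Tbr1* and *Neurod6*, which were raised together in Glut_0, Glut_11 and Glut_20, are shown 5′ to 3′ on the gene's strand, with motif letters in capitals. The sequences are RefSeq's for GRCm38.p6, and each matched GRCm39 exactly once, at chr11:98220422-98220721 (minus strand) for *Neurod2*, chr2:61634547-61634846 (plus strand) for *Tbr1* and chr6:55658199-55658498 (minus strand) for *Neurod6*. *Neurod6* holds none of the 3 motifs. A match is a description of letters and not of binding.
Neurod2: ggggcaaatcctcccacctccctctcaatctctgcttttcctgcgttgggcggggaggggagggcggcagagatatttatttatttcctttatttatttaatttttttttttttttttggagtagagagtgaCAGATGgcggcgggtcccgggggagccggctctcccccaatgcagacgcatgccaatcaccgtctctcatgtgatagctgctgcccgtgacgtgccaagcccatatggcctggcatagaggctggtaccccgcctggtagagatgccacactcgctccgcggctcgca
Tbr1: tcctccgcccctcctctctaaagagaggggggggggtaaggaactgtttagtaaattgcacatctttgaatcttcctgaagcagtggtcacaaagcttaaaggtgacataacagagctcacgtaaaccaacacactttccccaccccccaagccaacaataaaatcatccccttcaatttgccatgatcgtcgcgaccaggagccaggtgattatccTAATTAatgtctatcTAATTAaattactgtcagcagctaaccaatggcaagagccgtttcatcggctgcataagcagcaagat
Neurod6: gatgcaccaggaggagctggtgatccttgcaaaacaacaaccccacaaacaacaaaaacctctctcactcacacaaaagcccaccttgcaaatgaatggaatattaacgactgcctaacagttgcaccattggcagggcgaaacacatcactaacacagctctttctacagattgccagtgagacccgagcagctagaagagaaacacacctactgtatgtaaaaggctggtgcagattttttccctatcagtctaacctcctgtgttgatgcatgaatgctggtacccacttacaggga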

How the data were processed

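Nuclei of mouse brain vascular fragments (1 control and 1 CKO library) and retina (1 control and 11 CKO libraries) were measured by PIPseq. As deposited, each matrix holds UMI counts in whole numbers; before that, the authors ran PIPseeker 3.3.0, took out background with CellBender 0.3.2 and doublets with SOLO in scVI-tools 1.2.2-post2, and curated nuclei by hand; the study names a GRCm39 index and the labels mm10. Counts were summed per authors' label and library with Python 3.11.15, numpy 2.4.6, scipy 1.17.1 and pandas 2.3.3, and drawn with matplotlib 3.10.9. Intervals are exact (Poisson, binomial or conditional binomial) at 95%. Retinal genotypes were tested in R 4.3.3 with edgeR 4.0.16 (quasi-likelihood, TMM, batch as covariate, filterByExpr, genes with UMIs in batch 3 and in batch 1 or 2, libraries with at least 10 nuclei of the type) and DESeq2 1.42.0, at an adjusted p of 0.05. Brain libraries have no replicates and were not tested. All 30 members are named, and companion markers come from fixed lists. Raised members are not all named for each label. Members past a threshold or at an extreme are not all given with values. The members and lists were chosen with earlier results of these data known. Alternatives changed the UMI minimum, fold, scaling, depth minimum, covariate, filter and tool and left out libraries.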

Additional observations from a re-analysis of the deposited data

Results flagged for a closer look

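In 79 retinal levels of a member in a type, over 4 to 10 CKO libraries, the highest or lowest library was compared with its nearest neighbor by Dixon's ratio; 5 had a library apart, where chance gives about 1 in 20, and 20 levels with more than 10 libraries were not tested. *Cux2* in astrocytes was at 117 CPM in CKO replicate 7, from 3 UMIs in 11 nuclei, with the next library at 54.2, a median of 26.4 and the control at 64.0 CPM. *Etv1* in GABAergic amacrine cells was at 24.5 CPM in replicate 7 (77 UMIs), with the next at 13.0, a median of 10.7 and the control at 12.1 CPM. *Isl1* in glycinergic amacrine cells was at 64.7 CPM in replicate 7 (137 UMIs), with the next at 45.6, a median of 34.2 and the control at 36.2 CPM. *Lhx9* in cone bipolar cells was at 2.99 CPM in replicate 2 (6 UMIs in 631 nuclei), with the next at 1.23, a median of 0.508 and the control at 0. *Prox1* in horizontal cells was at 1209 CPM in replicate 5 (1001 UMIs in 88 nuclei), with the next at 816, a median of 704 and the control at 881 CPM. By the study's methods, hand curation also took out clusters that held several nuclei of the libraries given here as CKO replicates 4 and 5. No explanation was tested.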

How the results depend on the processing

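Of 110 member and label pairs in the brain, 20 were past 2-fold between the libraries; with at least 20 UMIs these were 34 of 144, and with at least 200 UMIs 4 of 62, where fewer pairs could pass. TMM scaling within labels gave 20, nuclei with at least 1000 UMIs 19 of 106, and leaving out Glut_20 and GABA_22, chosen after the data had been seen, 17 of 100. Members with the same top label numbered 17 of 20; they were 18 of 20 by the mean of per-nucleus CPM, 16 of 20 with TMM scaling, 17 of 20 over neuronal labels, 17 of 19 in nuclei with at least 1000 UMIs, 19 of 20 without Glut_20 and GABA_22, which takes out a top label of *Emx1* and of *Isl1*, and 24 of 30 with no UMI minimum; members raised in a neuronal label numbered 23, with 22 at 4-fold, 22 of 22 in nuclei with at least 1000 UMIs and 30 of 30 with no UMI minimum. In each member's top label, the mean of per-nucleus CPM lay within the counting interval for 13 of 30 members, at 0.831 to 2.22 times the level reported. In the retina, 120 alternative fits, 71 of them leaving out a library, called 0 members by edgeR or DESeq2, with 0 to 4 members per fit at an unadjusted p under 0.05, and 94 log2 values of the named members included 0 changes of sign. Under them the log2 fold change ran from -1.20 to -0.80 for *Foxp2* in Müller glia, 1.96 to 2.39 for *Isl1* there and -1.06 to -0.36 for *Prox1* in horizontal cells, where kit in place of batch as covariate gave -0.36 (unadjusted p 0.440; edgeR adjusted p 1.00, and 0.644 to 1.00 over the alternatives). No paired analysis was possible because the sources pair no libraries. With 1 brain library per genotype and 1 retinal control, differences between animals and between genotypes cannot be told apart, and depth limits statements on members with few UMIs, such as *Dlx2* and *Gbx2*.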
